A study of Mus musculus with 10 samples.

Results

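Macrophages grown from mouse bone marrow were compared between 2 runs of the same stimulation experiment. Cells of C57BL/6J mice were grown with macrophage colony-stimulating factor and left untreated or given Kdo2-lipid A, a bacterial endotoxin in its minimal form and a ligand of Toll-like receptor 4. The doses were 0.03 nM and 10 nM, and RNA was taken at 1 h and 2 h. The labels number the runs experiment 1 and experiment 2 and describe them as independent. Each run gave 5 libraries of polyadenylated RNA: untreated cells (labelled 0 nM and 0 h), 0.03 nM at 1 h, 0.03 nM at 2 h, 10 nM at 1 h and 10 nM at 2 h. All 10 libraries of the series belong to the comparison, as 5 pairs that share a dose and a time. The cells carry no genetic change by the labels, which name neither the sex nor the age of the mice. The labels do not say whether the 5 libraries of an experiment came from 1 set of dishes or 1 animal. The p-values below therefore measure how constant a difference between these 2 experiments was over 5 conditions, not how often cultures differ. In all that follows a positive log2 fold change means a higher level in experiment 2.

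Marrow cultures of this kind start from a mixture of progenitors, blood cells and connective tissue cells. Macrophage colony-stimulating factor selects for macrophages, but a few adherent stromal cells, which make collagens and contractile proteins, can persist. Macrophages also keep a low resting output of type I interferon, a cytokine that induces antiviral genes.

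Of 23284 genes in the count table, 6164 had no count and 12918 were tested. Library totals ran from 33179599 to 42167096 counts. Genes that define macrophages were abundant in both experiments: the 31 genes of the macrophage identity list summed to 54940 to 67810 CPM (counts scaled to library size) in experiment 1 and to 54800 to 67840 in experiment 2. Csf1r, the receptor for the growth factor, had a log2 fold change of -0.01 ± 0.04 (SE). Xist, transcribed from the inactive X chromosome of female cells, was between 428 and 932 CPM in all 10 libraries. The Y-linked genes Kdm5d and Uty had no count in any library, and Ddx3y and Eif2s3y had 2 counts in 1 library each. The sex marked by these genes was thus the same in both experiments. The pair at 0.03 nM and 2 h stood apart from the other 4 by a trend of its difference with gene length, which is described with the counts it changes.

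In a paired model over all 10 libraries (edgeR's quasi-likelihood test, Benjamini-Hochberg adjusted p below 0.05), 107 genes were called, 0.828% of those tested. Of these, 95 were higher in experiment 2 (0.735%) and 12 were lower (0.0929%). The count depended on which pairs entered: without the 0.03 nM 2 h pair 551 genes were called (387 higher and 164 lower), and without each of the other pairs 25 to 51. At an unadjusted p under 0.05 there were 1175 genes (9.1%). All 107 moved the same way in 5 of 5 pairs. For comparison, 816 genes (6.32%) were higher in experiment 2 in all 5 pairs and 657 (5.09%) were lower in all 5, whether called or not. The difference was at least 2-fold for 36 of the higher genes and 2 of the lower ones. In 50 called genes, 44 higher and 6 lower, every library of one experiment lay outside the range of the other. Called genes were chosen for this difference, and the share without overlap among all genes was not counted. With 5 pairs an exact two-sided test that flips the signs of a single gene's differences cannot go below p = 0.0625. Calls at smaller p rest on edgeR's count model, in which the spread of each gene is estimated with help from all genes.

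**Figure D1:**
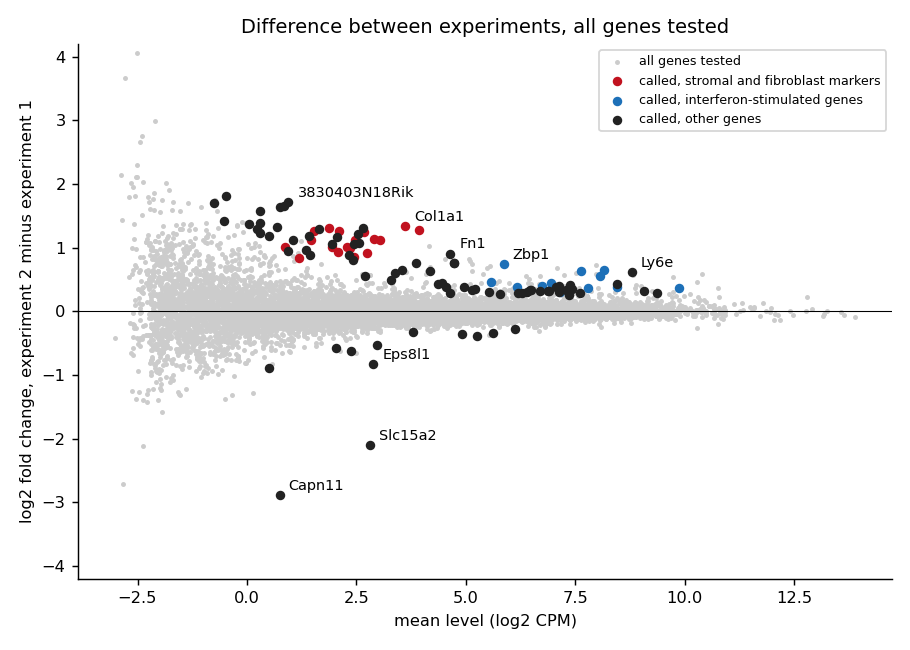
Log2 fold change between experiments (y axis, experiment 2 minus experiment 1) against mean level in log2 CPM (x axis), with 1 point per gene tested. Red points are called stromal and fibroblast markers, blue points are called interferon-stimulated genes, and black points are other called genes; the 12 genes called lower include Slc15a2 and Capn11, far below the rest.

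Most of the variation among libraries followed dose and time. In the median gene, condition took 86% of the variation in log2 CPM and experiment took 1.39%. With 5 conditions and 2 experiments, condition takes the larger share on average even in a gene that follows neither. The shares here are not corrected for this. In the called genes the medians were 33.5% for condition and 58.4% for experiment, a description of genes that were chosen for this difference. Experiment took a larger share than condition in 481 genes of all those tested, and 64 of the 107 called genes were among them. Single pairs of libraries differed more widely than the called genes show. At least 2-fold differences were seen in 448 genes (3.47%) between the untreated libraries and in 481 genes (3.72%) at 0.03 nM and 1 h. They were seen in 570 genes (4.41%) at 0.03 nM and 2 h, 520 genes (4.03%) at 10 nM and 1 h, and 626 genes (4.85%) at 10 nM and 2 h. Across genes, the differences of any 2 pairs had a Pearson correlation of 0.0397 to 0.236. Spearman's rho ran from -0.124 (0.03 nM 2 h with 10 nM 2 h) to 0.262 (untreated with 0.03 nM 1 h).

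In the paired edgeR model, genes of collagen-making connective tissue cells had the most called members of any list, all higher in experiment 2. DESeq2 called more interferon-stimulated genes (27) than stromal markers (22). The lists were chosen with earlier results of these data known, so this rank is only a description. Of 33 stromal and fibroblast markers listed, 31 were tested, and 18 were called higher and 0 lower. Among all genes tested, 0.735% were called higher and 0.0929% lower. The median log2 fold change of the list was 1.00, against -0.0073 over all genes tested. The median was similar in each pair: 0.995 in untreated cells, 0.875 and 0.86 at 0.03 nM (1 h and 2 h), and 1.05 and 1.14 at 10 nM. The called members were collagen chains (Col1a1, Col1a2, Col3a1, Col5a1, Col5a2, Col6a1, Col6a2 and Col6a3), matrix proteins and proteoglycans (Sparc, Bgn, Dcn, Fstl1 and Igfbp7), contractile proteins (Acta2, Tagln and Cald1), the collagen chaperone Serpinh1 and the metalloproteinase inhibitor Timp3.

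Col1a2, which encodes a chain of type I collagen (chromosome 6, 4455697 to 4491543, plus strand, mm9), gave the smallest p of the list. In experiment 1 it stood at 8.55 CPM in untreated cells, 9.95 and 9.09 at 0.03 nM (1 h and 2 h), and 8.73 and 8.18 at 10 nM. In experiment 2 the same conditions gave 21.6, 20.3, 19.6, 24.4 and 21.95 CPM. The experiments did not overlap, and within each the level hardly moved with dose or time. The fold was 2.41 (log2 1.27 ± 0.08, edgeR adjusted p = 7.87e-05).

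Col1a1, the partner chain of the same collagen (chromosome 11, 94797584 to 94813170, plus strand), had 7.69, 7.93, 6.43, 7.78 and 4.76 CPM in experiment 1, in the same order of conditions. It had 17.2, 17.1, 16.0, 18.4 and 18.5 CPM in experiment 2. Its fold was 2.52 (log2 1.34 ± 0.11, adjusted p = 0.000427). The pair at 10 nM and 2 h was the widest, because the experiment 1 library was the lowest of its 5.

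Acta2, the smooth muscle actin of contractile fibroblasts, had 3.76, 3.45, 4.41, 2.72 and 4.33 CPM in experiment 1 and 8.90, 6.66, 8.42, 10.8 and 9.99 CPM in experiment 2. Its log2 fold change was 1.25 ± 0.14, and the experiments did not overlap. Tagln, an actin-binding protein of the same cells, differed by 1.31 ± 0.15, and Sparc, a collagen-binding matrix protein, by 1.14 ± 0.10. Col5a1 and Col5a2, chains of a minor fibrillar collagen, each differed by 1.27, with SEs of 0.16 and 0.10. The 18 called markers had log2 fold changes close to each other, from 0.85 for Igfbp7 to 1.34 for Col1a1.

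The 13 tested members that were not called fell into unlike groups. Postn (1.24 ± 0.30), Loxl1 (1.21 ± 0.24), Fbn1 (0.92 ± 0.23), Cxcl12 (0.87 ± 0.24), Mmp2 (0.82 ± 0.22) and Pdgfra (0.80 ± 0.23) had estimates near those of the called genes, with larger errors at low counts. Col8a1 (0.54 ± 0.25), Pdgfrb (0.25 ± 0.14), Fap (0.17 ± 0.40) and Lepr (0.15 ± 0.36) had smaller ones. Kitl (-0.04 ± 0.11) and Igfbp4 (-0.13 ± 0.06) had estimates near 0 at higher levels. Mmp14, a membrane metalloproteinase that macrophages also make, had 0.40 ± 0.09. Igfbp4 and Mmp14 make up most of the summed level of the list, which ran from 583 to 885 CPM in experiment 1 and from 604 to 990 in experiment 2. The sum therefore overlapped between experiments while the collagens did not. Thy1, a surface protein of many fibroblasts, was under 0.2 CPM in every library and was not tested.

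Other called genes with connective tissue roles lay outside the list. By the rule for naming genes, the 12 largest differences among genes of at least 1 log2 CPM included Ctgf and Cyr61, matrix-associated signalling proteins, Tnc, the matrix protein tenascin C, Hspg2, the basement membrane proteoglycan perlecan, and the large cadherin Fat1. Ctgf stood at 2.38, 3.23, 2.71, 4.80 and 4.89 CPM in experiment 1 and at 5.95, 6.47, 8.18, 12.7 and 11.7 in experiment 2 (log2 1.31 ± 0.10, adjusted p = 0.000296). Within both experiments it was higher at 10 nM than in untreated cells. Tnc differed by 1.22 ± 0.14, Hspg2 by 1.17 ± 0.14, Fat1 by 1.29 ± 0.17 and Cyr61 by 1.19 ± 0.20. Of these, Cyr61 alone overlapped between experiments. Fn1, fibronectin, counted in the list of monocyte genes but also a fibroblast product, ran from 16.0 to 18.4 CPM in experiment 1 and from 28.8 to 36.1 CPM in experiment 2 (log2 0.91 ± 0.07, adjusted p = 0.000411).

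Several further genes were picked out after their values were seen. Aebp1 (1.08 ± 0.09), Prrx1 (1.12 ± 0.15), Thbs2 (1.57 ± 0.28), Cdh11 (0.97 ± 0.16), Mrc2 (1.32 ± 0.16) and Ltbp2 (0.88 ± 0.11) were all called higher in experiment 2, with no overlap between experiments. Prrx1 is a transcription factor of limb and skeletal mesenchyme and Cdh11 a cadherin of mesenchymal cells. In bulk RNA, more cells of a type and more RNA per cell cannot be told apart.

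Levels of these genes were low beside those of macrophage genes. The highest library for Col1a2 had 24.4 CPM, while Csf1r ran from 3735 to 4401 CPM over the 10 libraries. The stromal list had median responses to the ligand near 0. Its median log2 change against the untreated library of the same experiment lay between -0.113 and 0.136 in experiment 1 and between -0.186 and 0.11 in experiment 2. Single members departed from this: Pdgfrb, a growth factor receptor of pericytes and fibroblasts, was higher by 2.42 in experiment 1 and 1.79 in experiment 2 at 10 nM and 2 h.

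**Figure D2:**
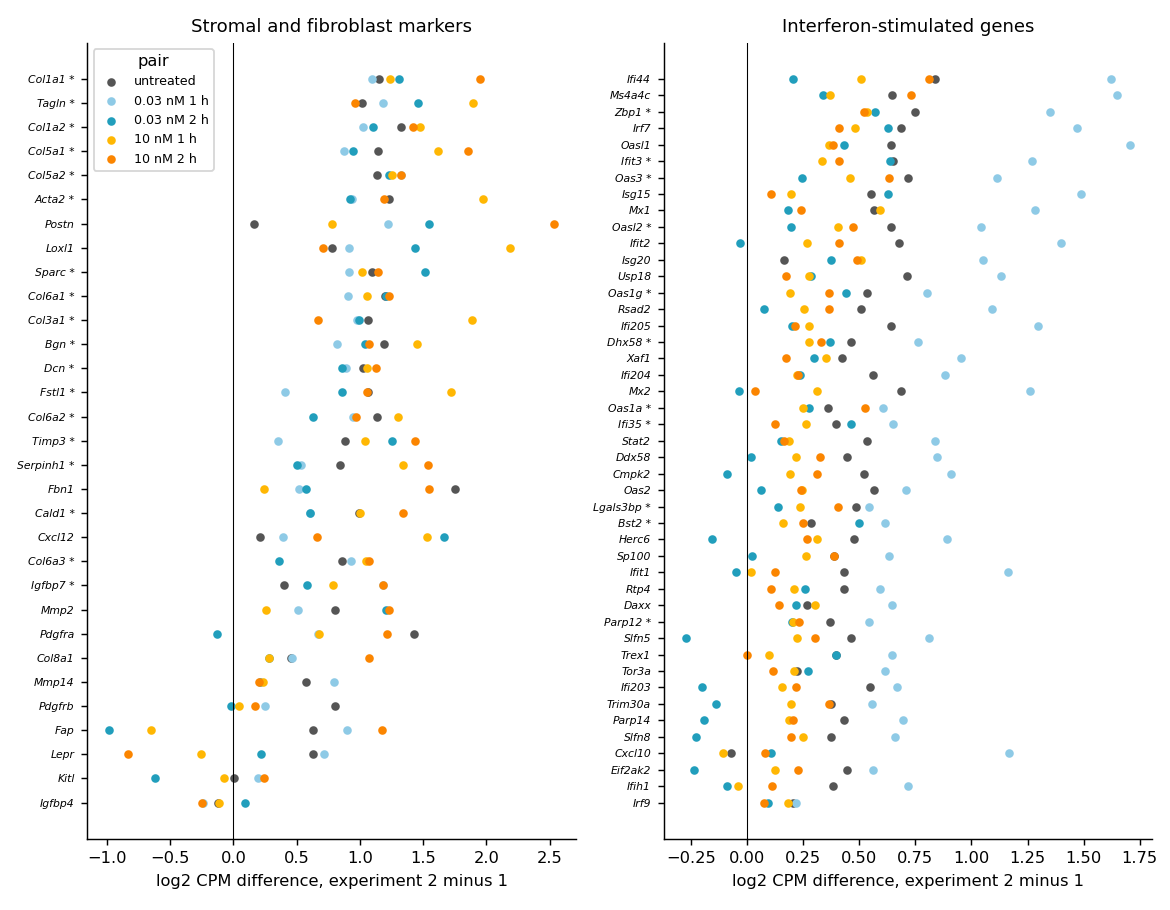
Log2 CPM difference between experiments (x axis, experiment 2 minus experiment 1) for each tested stromal and fibroblast marker (left) and interferon-stimulated gene (right), with 1 point per dose and time pair and an asterisk on called genes. Stromal markers are spread around 1 in all 5 pairs, while the pair at 0.03 nM and 1 h lies farthest right for every interferon-stimulated gene drawn (1 of the 46 is not drawn).

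Markers of other cell types gave fewer calls. For comparison, 0.735% of all genes tested were called higher and 0.0929% lower. Among endothelial markers, 2 of 10 tested were called higher: Col4a1, a basement membrane collagen that fibroblasts also make (1.05 ± 0.14), and Kdr, a receptor for vascular endothelial growth factor (0.50 ± 0.08). Pecam1 (0.14 ± 0.06) and Cdh5 (-0.19 ± 0.28), also in the endothelial list, were not called. Pecam1 ran from 14.8 to 20.1 CPM and was higher in 5 of 5 pairs, while Cdh5 had at most 0.98 CPM. Among megakaryocyte and platelet markers 2 of 10 were called lower, Ppbp (-0.58 ± 0.11) and Itgb3 (-0.32 ± 0.06), with a list median of -0.136. Among dendritic cell markers, Siglech was called lower and Bst2, which is also induced by interferon, higher, of 14 tested. Monocyte and immature myeloid genes gave 3 called higher of 18 tested: Fn1, Ly6a and Cx3cr1. Without the 0.03 nM 2 h pair, 4 endothelial and 6 monocyte genes were called higher. No member was called for neutrophil markers (14 tested, median -0.245), B cell markers (8 tested, median -0.492), mast cell markers (5 tested) or eosinophil markers (5 tested). The same held for T and NK cell markers (3 tested), erythroid markers (2 tested) and adipocyte markers (4 tested). Of 6 osteoblast and chondrocyte markers tested none was called either, but their median was 0.469, with estimates from -0.16 to 1.63. Of these, 4 of the 6 were higher in 5 of 5 pairs, against 6.32% of all genes. Whether these cell types had a part in the other differences was not tested.

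Antiviral genes induced by type I interferon were the second group, with smaller and less even differences. Of 46 interferon-stimulated genes tested, 12 were called higher in experiment 2 and 0 lower, against 0.735% and 0.0929% of all genes. All 46 had a positive log2 fold change, against 46.9% of all genes, and the list median was 0.376. The called genes included sensors of foreign nucleic acid or their regulators (Zbp1 and Dhx58), enzymes that make 2'-5' oligoadenylate and their relatives (Oas1a, Oas1g, Oas3 and Oasl2), antiviral effectors (Ifit3, Bst2 and Parp12), and Ifi35 and Lgals3bp.

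Zbp1, a sensor of Z-form nucleic acid (chromosome 2, 173032114 to 173044423, minus strand, mm9), had 23.2, 26.3, 37.3, 32.8 and 105 CPM in experiment 1. In experiment 2 it had 39.1, 67.3, 55.4, 47.5 and 150.5 CPM. Each condition was higher in experiment 2, but the experiments overlapped because stimulation moved the gene further than the experiment did. Its fold was 1.67 (log2 0.74 ± 0.11, adjusted p = 0.0223).

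Oas1a, a 2'-5' oligoadenylate synthetase, had 66.5, 65.4, 82.6, 85.0 and 155 CPM in experiment 1 and 85.2, 99.6, 100, 101 and 223 CPM in experiment 2. Its log2 fold change was 0.40 ± 0.06 (adjusted p = 0.015). Oas3, of the same family, had 113, 123, 167, 153 and 225 CPM in experiment 1 and 186, 267, 198, 210 and 350 CPM in experiment 2 (0.63 ± 0.10). For Ifit3, an effector that binds viral RNA, the values were 96.0, 102, 148, 150 and 665 CPM against 151, 246, 230, 189 and 883 CPM (0.66 ± 0.12, adjusted p = 0.0469). Oas3 and Ifit3 were chosen after their values were seen. In all of these genes the pair at 0.03 nM and 1 h was farther apart than the others, as the plot of members by pair shows.

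That pair stood out across the list. The median difference of the 46 genes was 0.842 at 0.03 nM and 1 h, 0.469 in untreated cells, 0.198 at 0.03 nM and 2 h, 0.245 at 10 nM and 1 h, and 0.244 at 10 nM and 2 h. For all 46 genes the pair at 0.03 nM and 1 h had the highest difference, while among all 12918 genes it was the highest for 2042. Against its own untreated library, the list rose at that condition by a median of 0.0794 in experiment 1 and 0.433 in experiment 2. In the other conditions the median was larger in experiment 1: 0.572 against 0.268 at 0.03 nM and 2 h, 0.602 against 0.445 at 10 nM and 1 h, and 2.20 against 1.96 at 10 nM and 2 h. The response was larger in experiment 2 for 46 of 46 genes at 0.03 nM and 1 h, and for 7, 3 and 4 of them in these conditions. The responses of an experiment share its untreated library, so they are given side by side only.

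The calls of this list depended on single pairs. Without the untreated pair 0 members were called, without the 10 nM 1 h pair 1, without the 10 nM 2 h pair 2, without the 0.03 nM 2 h pair 7 and without the 0.03 nM 1 h pair 8. With all pairs, DESeq2 called 27 members, edgeR with DESeq2 size factors called 7, and edgeR without the pairing term called 0. Stromal markers had between 10 and 22 called members over all these fits.

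Regulatory sequence was examined for the called interferon-stimulated genes, because they move together in these libraries. The interferon-stimulated response element, searched as TTTCNNTTTC on both strands, is a site bound by interferon regulatory factors. In RefSeq promoter windows of 300 bases (250 before to 50 after the start, build GRCm38.p6), 3.44% of 32851 windows held a match, and so did 4.0% of the 10144 tested genes that had a window. In the interferon-stimulated list 18 of 35 genes with a window held it, and among the called members 5 of 9 did: Bst2, Ifit3, Oas1a, Oas1g and Oas3. The share was thus similar in the whole list (51.4%) and in its called members (55.6%). Among interferon-inducible GTPases, of which edgeR called 0, 9 of 10 held a match. In the stromal list 1 of 23 did. The windows of 3 called genes are shown 5' to 3' on the gene's strand, with matches in capitals, including matches that overlap. They are Ifit3 on chr19:34583279-34583578 (plus), Oas1a on chr5:120907476-120907775 (minus) and Oas3 on chr5:120777610-120777909 (minus).
Ifit3: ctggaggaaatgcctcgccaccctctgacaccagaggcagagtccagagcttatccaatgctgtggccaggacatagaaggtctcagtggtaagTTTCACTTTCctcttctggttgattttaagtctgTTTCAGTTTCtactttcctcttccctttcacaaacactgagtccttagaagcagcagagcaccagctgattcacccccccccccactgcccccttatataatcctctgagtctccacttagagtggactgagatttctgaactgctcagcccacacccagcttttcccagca
Oas1a: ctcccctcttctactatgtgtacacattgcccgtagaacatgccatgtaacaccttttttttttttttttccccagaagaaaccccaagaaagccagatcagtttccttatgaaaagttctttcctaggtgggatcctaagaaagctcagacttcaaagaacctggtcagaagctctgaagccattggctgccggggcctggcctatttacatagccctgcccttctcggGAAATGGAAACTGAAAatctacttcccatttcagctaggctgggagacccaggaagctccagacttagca
Oas3: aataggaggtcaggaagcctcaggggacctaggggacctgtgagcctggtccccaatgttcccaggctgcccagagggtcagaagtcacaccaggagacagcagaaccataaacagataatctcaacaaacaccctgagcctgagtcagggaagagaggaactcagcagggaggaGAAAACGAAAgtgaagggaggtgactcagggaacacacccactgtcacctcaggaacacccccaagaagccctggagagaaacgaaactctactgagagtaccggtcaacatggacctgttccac
In Ifit3 the matches begin 156 and 122 bases before the start, in Oas1a 20 and 14 bases before it as an overlapping pair, and in Oas3 75 bases before it. A match describes the letters of a window and does not show that a factor was bound there.

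**Figure D3:**
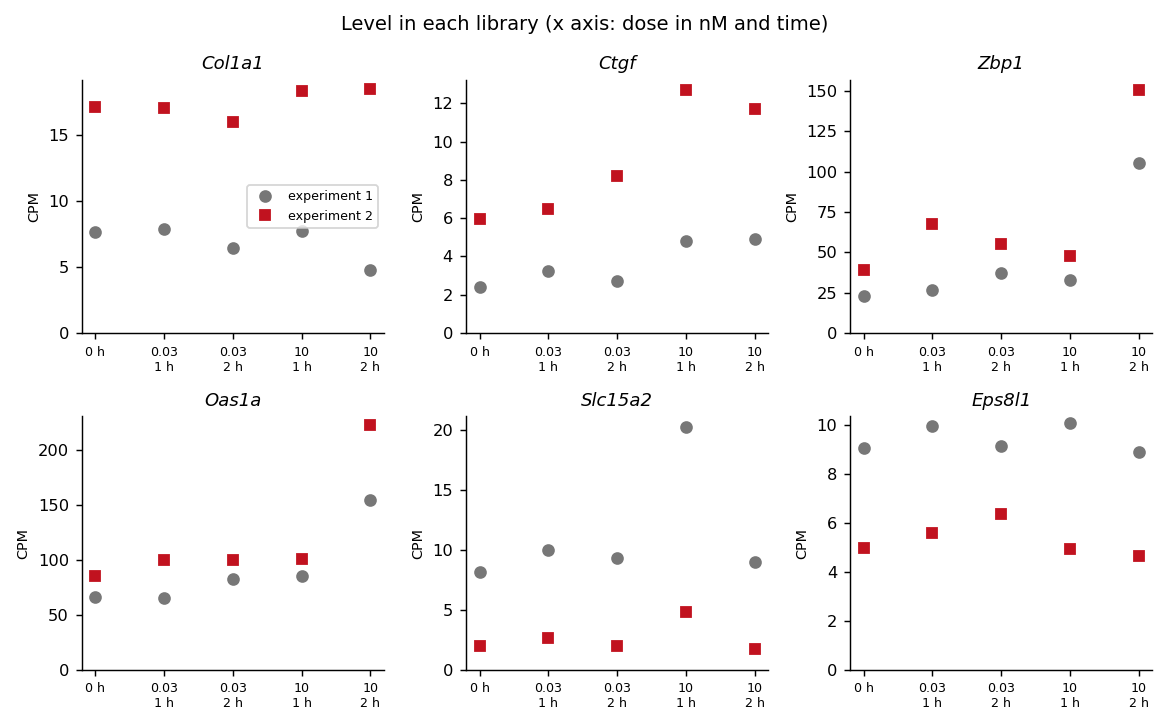
Level in CPM (y axis, from 0) in each of the 10 libraries for 6 genes, with experiment 1 as grey circles and experiment 2 as red squares, by dose in nM and time (x axis; 0 h is untreated). Col1a1, Ctgf, Slc15a2 and Eps8l1 keep their distance in every condition; Zbp1 and Oas1a change more with stimulation than between experiments.

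Among class I major histocompatibility and peptide-loading genes, which present peptides to T cells, 4 of 15 were called higher, against 0.735% of all genes. All 15 had positive estimates, with a median of 0.228. The called genes were Tap1, a subunit of the peptide transporter (0.41 ± 0.07), and H2-Q6 (0.65 ± 0.12), H2-Q7 (0.76 ± 0.12) and H2-T22 (0.33 ± 0.06). H2-Q7 and H2-Q9 overlap and had the same counts, and H2-T22 overlaps H2-T9, so the reads of these near-identical genes cannot be assigned. Without the untreated pair 0 of the 15 were called, and without the 0.03 nM 2 h pair 7. Among the interferon-inducible GTPases, which attack vacuoles of intracellular microbes, 0 of 15 were called by edgeR and 11 had an unadjusted p under 0.05, against 9.1% of all genes. The median was 0.305. DESeq2 called 5, and edgeR without the 0.03 nM 2 h pair called 3.

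Called genes outside these lists were again named after their values were seen. Ly6e, an interferon-inducible membrane protein, ran from 268 to 429 CPM in experiment 1 and from 404 to 652 CPM in experiment 2 (0.61 ± 0.08, adjusted p = 0.007). Ifitm3 (0.29 ± 0.06), Adar (0.27 ± 0.05), Uba7 (0.30 ± 0.05), Sp110 (0.32 ± 0.05), Parp10 (0.29 ± 0.06) and Trim34a (0.34 ± 0.06), known interferon-inducible genes, were also called higher. The Fc receptors Fcgr1 (0.42 ± 0.06) and Fcgr4 (0.38 ± 0.06), which bind antibody, were called higher, and for Fcgr1 the experiments did not overlap. Fcgr1 belongs to the macrophage identity list, of which 2 of 31 genes were called higher and 0 lower, against 0.735% and 0.0929% of all genes. Ly6a, a surface protein of progenitors that interferon also induces, had 1.45, 2.51, 2.66, 1.97 and 3.55 CPM in experiment 1 and 2.82, 8.17, 4.90, 3.33 and 6.57 CPM in experiment 2 (1.06 ± 0.15).

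Among genes of the Toll-like receptor response itself, no member was called among 21 inflammatory cytokines (median 0.203), 19 chemokines (median 0.128) or 18 NF-kB subunits and feedback genes (median 0.0829), by the same edgeR test. Their counts at an unadjusted p under 0.05 were 6, 4 and 2, where 9.1% of all genes had such a p. The cytokine median was uneven over pairs, at 0.415 in untreated cells (20 of 21 higher), 0.614 at 0.03 nM and 1 h (18 of 21 higher), 0.142 at 0.03 nM and 2 h, and 0.0601 and 0.131 at 10 nM. Tnf, which was 7.77 CPM in untreated cells of experiment 1 and 9.88 CPM in those of experiment 2, reached 3835 and 3662 CPM at 10 nM and 1 h. Il6 reached 133 and 140 CPM at 10 nM and 2 h. Ifnb1, which encodes interferon beta, was at 0.0953 and 0.145 CPM in untreated cells and at 103 and 94.0 CPM at 10 nM and 1 h (log2 0.22 ± 0.12, not called). Irf7, the interferon regulatory factor that amplifies interferon production, had a log2 fold change of 0.73 ± 0.14 and an adjusted p of 0.0567, just outside the threshold.

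The pair at 0.03 nM and 1 h was again wide for several of these genes. Il1b stood at 71.1 CPM in experiment 1 and 142 CPM in experiment 2 there, against 125 and 138 CPM at 0.03 nM and 2 h. Cxcl10, a chemokine for T cells, stood at 33.0 and 74.2 CPM, against 166 and 179 CPM an hour later. For Ccl5, another T cell chemokine, the values were 15.9 and 49.6 CPM. The 0.03 nM 1 h pair had the highest difference for 14 of the 18 NF-kB genes and for 11 of the 19 chemokines. Of the 26 immediate-early genes tested, Fos was the only one called (0.40 ± 0.06), with 220 and 318 CPM at 0.03 nM and 1 h. Tlr4 and its co-receptor Cd14 had fold changes of -0.02 ± 0.09 and 0.06 ± 0.05.

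**Figure D4:**
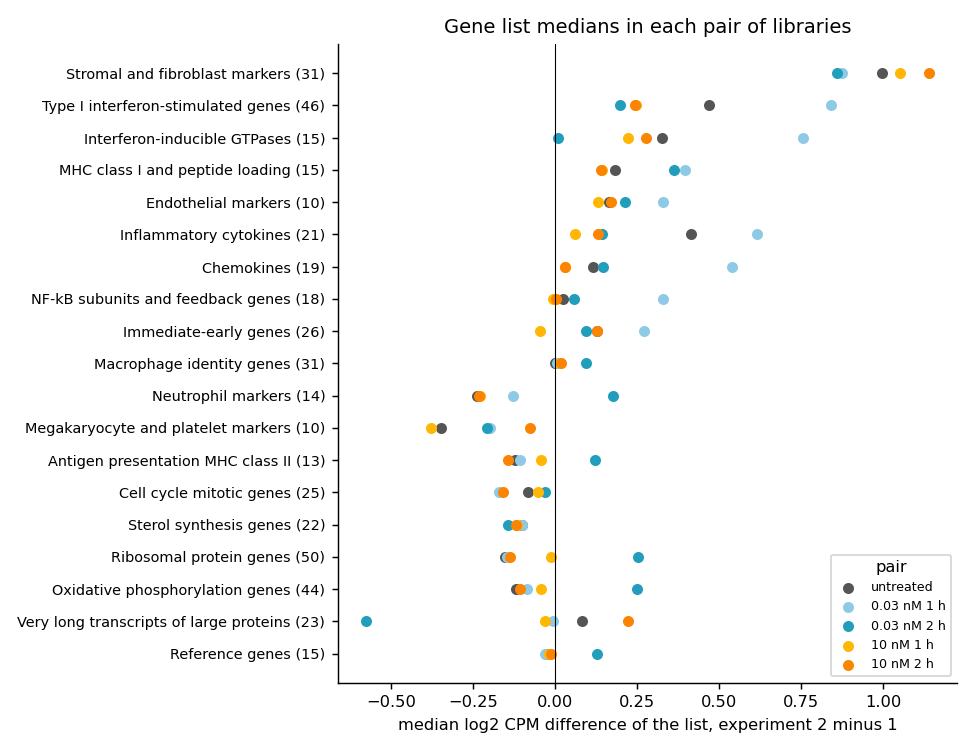
Median log2 CPM difference between experiments (x axis, experiment 2 minus experiment 1) for 19 gene lists (y axis, number of tested genes in brackets), with 1 point per dose and time pair. Stromal markers lie near 1 in all 5 pairs; for interferon and chemokine lists the 0.03 nM 1 h pair lies highest, and the 0.03 nM 2 h pair departs from the others for ribosomal protein genes and very long transcripts.

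The test of whether a difference between experiments depended on dose (10 nM against 0.03 nM) called 0 genes (0%), and so did the test on time (2 h against 1 h), also 0%. These edgeR fits had 2 residual degrees of freedom. At an unadjusted p under 0.05 there were 391 genes for dose and 164 for time, and DESeq2 called 0 in both tests. The result hung on single pairs: without the 0.03 nM 1 h pair 1779 genes were called for dose, without the 0.03 nM 2 h pair 215, and without the 10 nM 2 h pair 515 were called for time. In those fits 1 dose or time is represented by a lone pair, which is assumed to vary like the others. They leave 1 residual degree of freedom, so their counts are a weak guide to how far the result depends on a pair.

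Few genes were called lower in experiment 2, and the largest called falls stood apart from any list. Slc15a2, a transporter that takes up dipeptides and tripeptides with protons (chromosome 16, 36750250 to 36785048, minus strand, mm9), gave the smallest p of all genes tested. It had 8.19, 9.95, 9.33, 20.2 and 9.03 CPM in experiment 1 and 2.00, 2.66, 1.99, 4.84 and 1.74 CPM in experiment 2. Within each experiment the 10 nM 1 h library was the highest, and the experiments did not overlap. The level was 4.3-fold lower in experiment 2 (log2 -2.10 ± 0.10, adjusted p = 7.855e-06). Of its relatives, Slc15a3 (0.05 ± 0.05) and Slc15a4 (0.06 ± 0.05) were not called, and Slc15a1 had at most 0.0274 CPM. Its tested neighbours on the chromosome were not called either: Ildr1, the nearest on one side, had -0.48 ± 0.57, Cd86 had -0.04 ± 0.05, Golgb1 -0.10 ± 0.06, Iqcb1 -0.09 ± 0.13 and Eaf2 0.24 ± 0.38.

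Capn11, a calpain protease (chromosome 17, 45767153 to 45796258, minus strand), had the largest difference of the called genes. It had 3.10, 2.87, 3.37, 3.07 and 1.90 CPM in experiment 1 and 0.434, 0.407, 0.502, 0.370 and 0.205 CPM in experiment 2. The level was 7.39-fold lower (log2 -2.88 ± 0.17, adjusted p = 5.08e-05), at a mean under 1 log2 CPM, and the gene was named after its values were seen. Eps8l1, related to an actin-regulating substrate of the epidermal growth factor receptor, had 9.05, 9.93, 9.12, 10.1 and 8.87 CPM against 4.97, 5.58, 6.34, 4.92 and 4.65 CPM (log2 -0.83 ± 0.09, adjusted p = 0.00331). Its neighbours Rdh13 (-0.01 ± 0.09) and Ppp1r12c (0.04 ± 0.05) were not called.

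The other falls were smaller. Siglech, a lectin of plasmacytoid dendritic cells and microglia, fell by 0.63 on the log2 scale, and Ppbp, a platelet chemokine, fell by 0.58. Cpne8 (-0.52 ± 0.10), Gdf3, a growth factor of the transforming growth factor family (-0.38 ± 0.06), Scd2, a fatty acid desaturase (-0.35 ± 0.06), Slc5a3, the inositol transporter (-0.33 ± 0.06), the integrin chain Itgb3 (-0.32 ± 0.06) and Gclm, a subunit of the enzyme that starts glutathione synthesis (-0.27 ± 0.05), completed the falls of at least 1 log2 CPM. For Gdf3 and Gclm the experiments did not overlap. Cd7, a lymphoid surface protein at a lower level, differed by -0.88 ± 0.16.

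The genes called higher in experiment 2 included a few X-linked ones, and these too were named after their values were seen. Xlr3b and Xlr4b, neighbouring members of a lymphoid-regulated gene family on the X chromosome, had 0.578 to 1.08 and 0.492 to 0.925 CPM in experiment 1. They had 2.05 to 2.99 and 1.94 to 3.20 CPM in experiment 2. The log2 fold changes were 1.66 ± 0.20 and 1.64 ± 0.18. Xlr4a (0.72 ± 0.18) and Xlr4c (1.36 ± 0.38) were not called. Near-identical copies make it uncertain how reads were divided within the family. 3830403N18Rik, elsewhere on the X chromosome, differed by 1.72 ± 0.16. Mid1, a ubiquitin ligase that binds microtubules (0.64 ± 0.08), and G530011O06Rik (0.76 ± 0.11) overlap on opposite strands, and without a stated strand setting their reads cannot be told apart. In all, 6 of 424 tested X-linked genes were called, the remaining one being the stromal marker Bgn, against 0.828% of all genes. Chromosome 17 had a similar share, 10 of 681, and the other chromosomes had lower ones. On chromosome 2, Cdk5rap1, an enzyme that modifies mitochondrial transfer RNA, differed by 0.81 ± 0.10, and its neighbour Mapre1 (-0.03 ± 0.04) was not called.

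The 0.03 nM 2 h pair stood apart by gene length. The difference between experiments fell with the exonic length of a gene in that pair (Spearman's rho across genes -0.478), and the cause of this trend was not tested. The other pairs gave 0.211 (untreated), 0.0793 (0.03 nM 1 h), -0.0014 (10 nM 1 h) and 0.216 (10 nM 2 h). Genes are not independent replicates, so no p is given. All 50 ribosomal protein genes, which are short, were higher in experiment 2 in that pair, with a median of 0.252, against 1 to 21 of the 50 in the other pairs. All 23 very long transcripts were lower there, with a median of -0.576. Xist, a long transcript, was 826 CPM in experiment 1 and 428 CPM in experiment 2 in that pair. The stromal difference was 0.86 in this pair and 0.875 to 1.14 in the others.

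**Figure D5:**
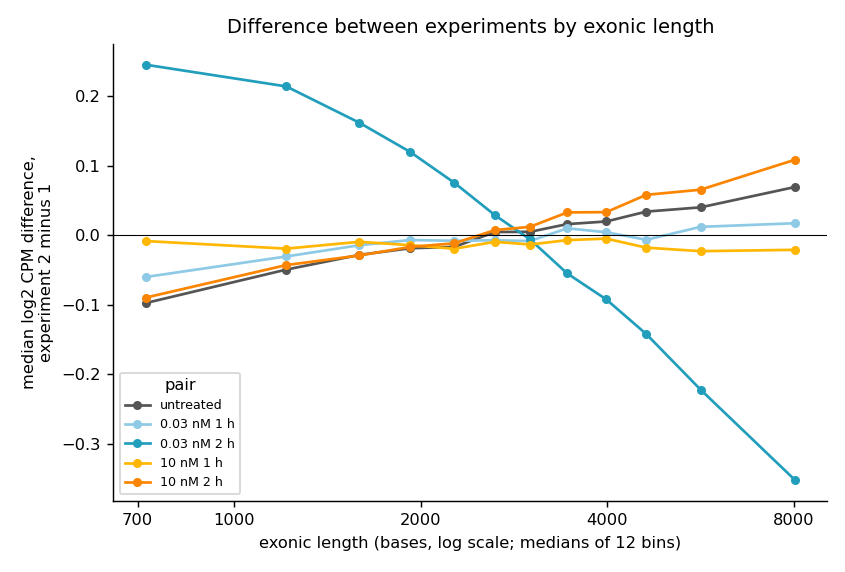
Median log2 CPM difference between experiments (y axis, experiment 2 minus experiment 1) in 12 bins of exonic length (x axis, bases, log scale), with 1 line per dose and time pair. The 0.03 nM 2 h pair falls from 0.245 in the shortest genes to -0.352 in the longest, while the other 4 pairs stay within about 0.11 of 0.

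The call of Slc15a2 and those of Col1a1, Col1a2, Acta2, Tagln, Sparc, Fn1, Eps8l1, Mid1, Cdk5rap1, Xlr3b, Xlr4b and Capn11 held without each of the 5 pairs in turn. Among interferon-stimulated genes, Zbp1 held in 2 of the 5 fits, and Oas1a, Oas3 and Ifit3 in 1. Over all alternatives the log2 fold changes of Zbp1 ran from 0.50 to 0.80, and those of Col1a2 from 0.85 to 1.34.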

How the data were processed

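Each library's raw counts, as deposited, are reads summed over a gene model's exons, per the file headers, and exonic length is from that table. A second deposited table gives the authors' rlog values, a shrunken log2 scale. Software named in the submitters' processing notes is TopHat2 2.0.11, bcl2fastq 2.15.0.4, Subread's featureCounts 1.4.5-p1 and DESeq2, with the mm9 genome. Their roles, the rlog options and the strand setting are not stated there.

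edgeR 4.0.16 (R 4.3.3) was used on the counts, with filterByExpr over the 5 conditions and TMM scaling. A robust quasi-likelihood fit had a mean for each condition and a term for experiment, which leaves 4 residual degrees of freedom. Libraries are paired by the labelled dose and time. Differences of the pairs had Pearson correlations of 0.0397 to 0.236 across genes. CPM use scaled library sizes, and differences within a pair are of log2 CPM with a prior count of 2. Overlap means that the CPM ranges of the 2 experiments touch. The members and the 47 gene lists were chosen with earlier results of these data known. The rule named the 12 largest changes each way among called genes of at least 1 log2 CPM with the same sign in 5 pairs (10 falls qualified), up to 4 members by smallest p of each list with at least 3 called, and a fixed panel. Alternatives used DESeq2 1.42.0, limma 3.58.1 on the rlog values, other scalings, filters, length offsets and fits without a pair or without the pairing term. The model was tested on simulated data. Motifs were searched in RefSeq promoter windows of GRCm38.p6, whose coordinates are not those of the mm9 counts. Values of some single genes are not reported here.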

Additional observations from a re-analysis of the deposited data

Results flagged for a closer look

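In 13 of 99 genes and 9 of 47 lists checked, 1 of the 5 pairs lay far from the other 4 (gap over range above Dixon's 95% value of 0.71). Chance flags about 1 in 20 independent groups. The genes and lists share 10 libraries, and many were chosen with values known, so that rate is no yardstick for these counts. The 0.03 nM 1 h pair was the distant one for Zbp1 (difference 1.35, others 0.52 to 0.75), Irf7 (1.47), Cxcl10 (1.17), Ly6a (1.68), Tap1 (0.76) and Fcgr1 (0.68), and for the medians of the chemokine list (0.54) and the NF-kB list (0.33). The 0.03 nM 2 h pair was distant for Xist (-0.95) and Tlr4 (-0.50). It was also distant for the medians of the macrophage identity (0.09), neutrophil (0.18), integrated stress response (0.18), unfolded protein response (0.03), NRF2 target (0.07), oxidative phosphorylation (0.25) and reference gene (0.13) lists. The untreated pair was distant for Gclm (-0.12), Cxcl1 (0.53, at under 0.3 CPM in both libraries) and Actb (-0.07), the 10 nM 2 h pair for Col1a1 (1.95) and the 10 nM 1 h pair for Acta2 (1.98).

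For some lists both pairs of a dose, or of a time, had medians of one sign and the other pairs the opposite sign. The difference between 10 nM and 0.03 nM was 0.28 for dendritic cell markers, 0.28 for T and NK cell markers, 0.80 for erythroid markers (2 genes), 0.06 for adipocyte markers and 0.07 for metallothionein genes. The difference between 2 h and 1 h was -0.09 for osteoclast genes, 0.05 for LXR targets and 0.09 for heat shock genes. None of these differences was tested.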

How the results depend on the processing

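All 107 called genes kept their sign in every alternative. They already had the same sign in 5 of 5 pairs, so refitting the same libraries could hardly reverse it. The calls themselves were less stable: 82 of the 107 were lost without the untreated pair and 86 without the pairing term. The count of calls (107, 95 higher and 12 lower) became 211, 189 and 22 with DESeq2, and 187, 146 and 41 with offsets for exonic length, where 78.1% of the calls were higher against 88.8%; the cause was not tested. Without the pairing by dose and time (no replicate block) it became 21, 19 and 2, since the large effects of dose and time then enter the residual. It stayed between 87 and 132 with DESeq2 size factors, library totals, no low count filter or limma on rlog values. Leaving out 1 pair at a time gave 25 to 551 calls, 22 to 387 higher and 3 to 164 lower; these were 25 without the untreated pair, 51 without 0.03 nM 1 h, 551 without 0.03 nM 2 h (70.2% higher), 37 without 10 nM 1 h and 44 without 10 nM 2 h. The counts for dose and time were 0 under every alternative except leaving out a pair, where they ran from 0 to 1779 and from 0 to 515. Called stromal markers numbered 10 to 22 over all alternatives and called interferon-stimulated genes 0 to 27. Differences of at least 2-fold were called higher in 55 genes with DESeq2, 17 without the pairing and 0 on rlog values, which are shrunk. Genes with few counts limit the precision, as the errors of Postn and Loxl1 show.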

Other observations

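Other metabolic and growth lists gave small medians with few calls. Of 25 mitotic genes, 24 had a negative estimate (median -0.107) and 0 were called by edgeR, with 6 at an unadjusted p under 0.05 (9.1% of all genes); of 22 sterol synthesis genes tested, 21 had a negative estimate (median -0.0959), with 0 called and 4 under that p. The glycolysis list (21 genes, median 0.0087) and the DNA replication list (25 genes, median 0.048) had 0 calls, with 1 gene each under that p. Ddit3, a stress-induced transcription factor (0.45 ± 0.08), and Ccnd1, the G1 cyclin (0.33 ± 0.06), were called higher in experiment 2; both were named after their values were seen.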
